A study of Mus musculus with 2 samples.

Results

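Imprinted genes are the subject here: 42 genes in 20 imprinted clusters that were chosen by gene symbol from a list of known imprinted genes, out of 32093 annotated coding and long non-coding genes. All 42 symbols were found in the GENCODE M21 annotation of mm10, 35 as protein-coding and 7 as long non-coding genes. The assay was DNase-seq: nuclei are treated with the enzyme DNase I, which cuts DNA where it is exposed, and the cut ends are read by sequencing. The material was frontal cortex of female B6CASTF1/J mice aged 10 days, an F1 hybrid of the strains C57BL/6J and CAST/EiJ, and the design has 1 group with 2 libraries, labelled biological replicates 1 and 2. The labels carry the mark 3x, which they do not explain. They name the same donor record for both libraries and do not say that separate animals were used, so the spread between the libraries may be technical. No treatment, genotype or age was contrasted, so no statistical test was made, and every value is given for both libraries.

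An imprinted gene is expressed mainly from the copy inherited from 1 parent. The choice is set in the germline as DNA methylation at a differentially methylated control region, which is protected after fertilisation by zinc-finger proteins such as ZFP57 and ZFP445 and copied by the methyltransferase DNMT1. At some clusters the unmethylated control region is bound by the insulator protein CTCF, and at others it is the promoter of a long non-coding RNA that silences its neighbours. The files hold no allele counts, so all values below are the accessibility of both parental copies together.

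Replicate 1 had 104654 peaks and 293484 footprints, replicate 2 had 81654 peaks and 187137 footprints, and 64.8% and 82.9% of their peaks overlapped a peak of the other library. A footprint is a short stretch inside open DNA that is cut less than its surroundings, as where a protein sits. Peak strength is the authors' peak signal, a value whose scaling is not stated in the sources used here and which is compared within a library. Read depth is unknown for the same reason. Of the cortical excitatory neuron markers, Neurod6 had promoter signals of 1.34 and 1.36, Slc17a7 of 0.708 and 1.25, Tbr1 of 0.958 and 1.23 and Emx1 of 0.833 and 1.82. Of the other markers, promoters with a peak in replicates 1 and 2 numbered 2 and 2 of 3 for inhibitory neurons, 3 and 2 of 3 for astrocytes, 2 and 2 of 3 for the oligodendrocyte lineage, 1 and 1 of 3 for microglia and 2 and 0 of 2 for endothelium. Of all genes, 54.5% and 51.5% had one. Median signals where present were 0.862 and 1.03 for inhibitory neurons, 0.818 and 1.76 for astrocytes and 1.26 and 1.22 for the oligodendrocyte lineage. Those of microglia were 0.505 and 0.507, and that of endothelium was 0.508 in replicate 1. The astrocyte marker Gfap, at 1.80 and 2.45, was above each excitatory value given here, so excitatory markers were not set apart. The tissue is a mixture of cell types, so fewer cells of a type and less opening per cell cannot be told apart.

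A promoter was counted as open where a peak overlapped the 500 bp on either side of any annotated start of the gene, and its signal is that of the highest such peak. By this rule 37 of the 42 imprinted genes (88.1%) were open in replicate 1, where 54.5% of all genes were, and 36 (85.7%) in replicate 2, where 51.5% were. The same 36 genes were open in both libraries, against 50.8% of all genes. Dlk1 was open in replicate 1 only (3.7% of all genes), and no imprinted gene was open in replicate 2 only (0.717% of all genes). The genes without a promoter peak in either library were Igf2, Ndn, Rtl1, Rian and Slc38a4. Among protein-coding members 31 and 30 of 35 were open, beside 66.1% and 63.3% of all protein-coding genes. Among the long non-coding members 6 of 7 were open in each library, beside 29.4% and 25.9%, and Rian was the closed one.

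Open promoters were more frequent among genes with more annotated starts. The imprinted genes had a median of 5 starts, against 2 for all genes, and each added start adds a window in which a peak can fall. Of the 8 members with 1 start, 6 were open in each library, beside 28.5% and 25.4% of all genes with 1 start. All 10 members with 2 to 4 starts were open, beside 56.8% and 53.2%. Of the 14 members with 5 to 9 starts, 12 and 11 were open, beside 89.6% and 87.1%, and of the 10 with 10 or more starts 9 were open in each library, beside 96.8% and 95.9%. So the members stood above other genes at up to 4 starts and not at 5 or more, in groups of 8 to 14 members. These groups were not split by gene type. Of the 42 members 35 are protein-coding, and long non-coding genes were open less often, so the part of gene type in this gap was not tested. At the 5-prime end of the gene record alone, 33 and 31 members were open, beside 50.5% and 47.4% of all genes.

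**Figure D1:**
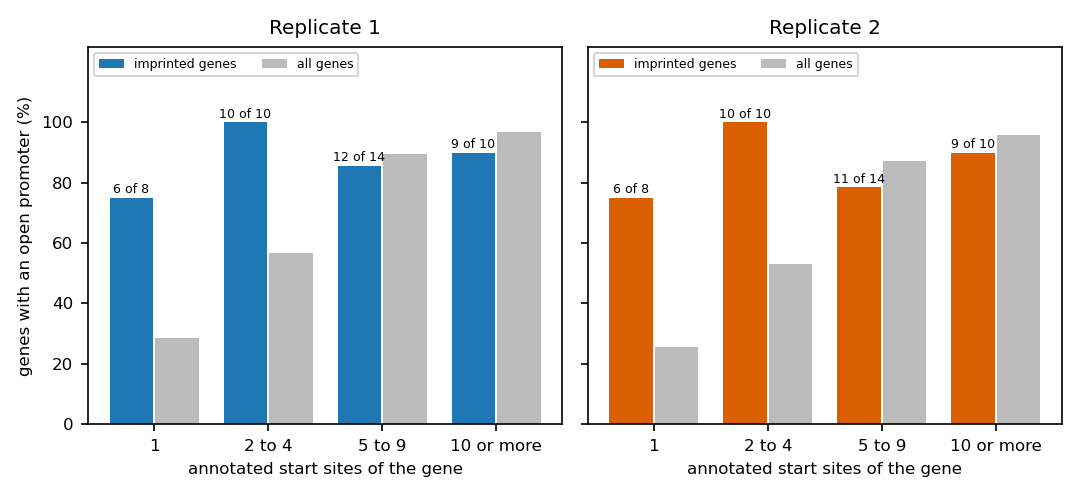
Share of genes with an open promoter (percent, y axis) by number of annotated start sites (x axis) in replicate 1 (left) and replicate 2 (right); coloured bars are the imprinted genes, with their counts, and grey bars are all genes. Imprinted genes stand above all genes at 1 and at 2 to 4 starts, and slightly below them at 5 to 9 and at 10 or more.

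Open imprinted promoters were of moderate strength. Over the 36 genes open in both libraries the median signal was 2.21 in replicate 1 and 2.54 in replicate 2, against 3.10 and 3.51 over all genes open in both. The median member stood at percentile 41.4 and 38.9 of the open genes of its library, with 14 and 13 members above the median of open genes. In each library 1 member was in the top decile, Ube3a in replicate 1 and Inpp5f in replicate 2. Ube3a, a ubiquitin ligase expressed from the maternal copy in neurons, had signals of 7.55 and 8.28. Inpp5f, a phosphoinositide phosphatase, had 6.30 and 8.54. The other strong promoters were those of Commd1 (5.41 and 7.40), Copg2 (5.36 and 6.17), Trappc9 (5.33 and 5.41), Mcts2 (5.10 and 6.20) and H13 (4.48 and 4.51). These 7 promoters were above the median of open genes in both libraries. At the other end stood H19 (0.380 and 0.496), Magel2 (0.667 and 0.643), Phlda2 (0.547 and 1.04), Peg12 (0.807 and 0.880) and Mirg (0.547 and 1.23). The highest promoter peak was the same for both genes of 2 divergent pairs, Peg3 with Usp29 and Peg10 with Sgce, so the open promoters were 35 and 34 distinct peaks.

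**Figure D2:**
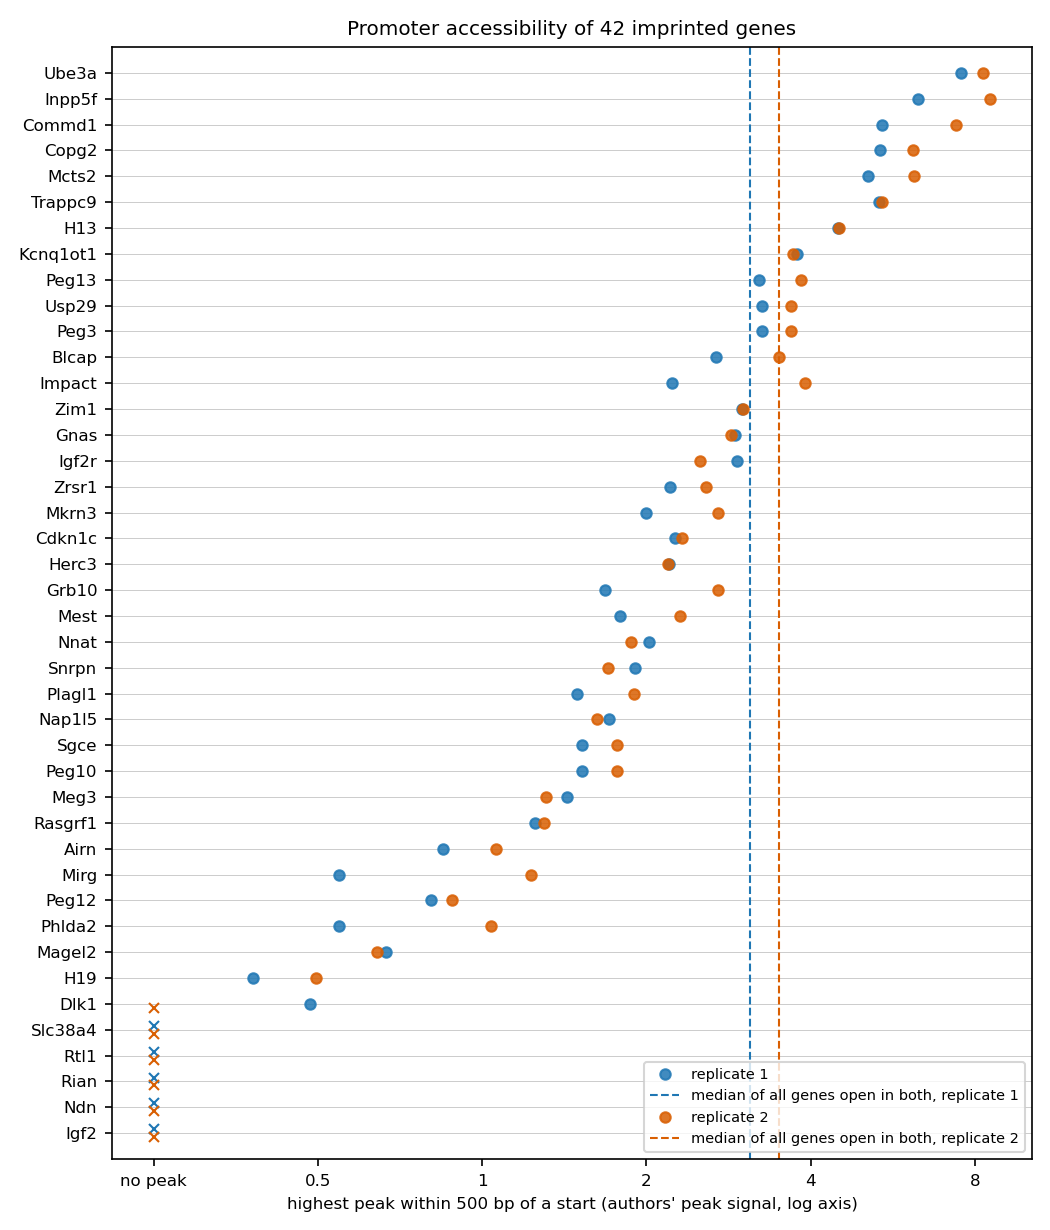
Promoter signal (x axis, the authors' peak signal, log axis) of each of the 42 imprinted genes (y axis, ordered by mean signal); points are the 2 libraries, crosses mark a library without a promoter peak, and dashed lines are the medians of all genes open in both libraries. Most members lie left of the dashed lines at 3.10 and 3.51, and Ube3a and Inpp5f lie furthest right.

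At the Igf2-H19 locus on chromosome 7, the growth factor gene Igf2 showed no accessible start while the control region beside the H19 long non-coding RNA gene was open. None of the 9 annotated starts of Igf2 had a peak, and no base within 500 bp of them was listed in the authors' cut-rate tables, which hold bases with a false discovery rate up to 0.05. The nearest strong sites lay upstream of Igf2, at chr7:142672221-142672440 in replicate 1 (signals 1.23 and 1.65) and chr7:142675761-142675980 (1.04 and 1.67). In brain, Igf2 is known mainly from choroid plexus, leptomeninges and vessels, and of the choroid plexus markers Ttr, Folr1 and Otx2 had no promoter peak in either library and Kl had 0.479 and 0.620. Of the fibroblast and leptomeningeal markers Lum had none, Dcn had 0.167 in replicate 1 only, Foxc1 had 1.33 and 1.34 and Col1a1 had 2.85 and 3.70. The part of these cells in the result was not tested. The H19 promoter itself was the weakest open one of the members, at percentiles 4.15 and 3.34 of the open genes.

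The window from 5 kb to 1 kb upstream of H19, where CTCF is known to bind the unmethylated maternal copy, held 4 peaks in replicate 1 and 3 in replicate 2, with top signals of 1.05 and 1.31. Each was stronger than the H19 promoter of its library, and 3 sites were found in both. Motifs were searched on both strands, here and below, and the window held 4 matches to the CTCF core, all on the minus strand, of which 4 lay in a peak in replicate 1 and 3 in replicate 2. In replicate 1, 3 of them lay under a footprint (covered over at least 0.5 of their length) and in replicate 2 only 1, the match 2.63 kb upstream of the start, which was covered whole in both libraries. The accessible stretches common to both libraries are printed below from the mm10 genome, plus strand, because they carry these matches; capitals mark the CTCF core and the hexamer TGCCGC, the ZFP57 recognition sequence, which overlap at 3 of the 4 cores, the farthest core lying outside these stretches.
H19 site nearest the gene, chr7:142580221-142580420: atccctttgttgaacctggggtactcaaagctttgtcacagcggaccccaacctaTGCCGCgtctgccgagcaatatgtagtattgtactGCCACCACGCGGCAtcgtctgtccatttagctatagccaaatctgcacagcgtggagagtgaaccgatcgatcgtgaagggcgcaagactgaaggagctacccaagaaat
H19 middle site, chr7:142580661-142580860: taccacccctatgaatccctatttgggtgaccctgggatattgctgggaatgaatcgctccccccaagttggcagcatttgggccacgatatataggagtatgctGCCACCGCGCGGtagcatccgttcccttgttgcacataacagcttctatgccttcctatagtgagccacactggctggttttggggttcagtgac
H19 far site, chr7:142581701-142581940: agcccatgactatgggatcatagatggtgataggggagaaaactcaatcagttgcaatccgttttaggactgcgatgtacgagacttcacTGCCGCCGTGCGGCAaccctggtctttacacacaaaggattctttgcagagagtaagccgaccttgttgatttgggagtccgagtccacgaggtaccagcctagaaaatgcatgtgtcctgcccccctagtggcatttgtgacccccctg
The signals of these sites were 0.750 and 0.789 for the nearest, 1.02 and 1.31 for the middle one and 1.05 and 1.14 for the far one, so the order of the stronger pair differed between the libraries.

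The Peg3 control region held more footprints than any other window examined. Peg3 encodes a zinc-finger protein expressed from the paternal copy, and it shares a promoter peak (chr7:6730321-6730620) with the divergent gene Usp29, a ubiquitin protease, at 3.26 and 3.68. The window from 500 bp before to 4 kb after the Peg3 start, which covers the first intron, held 5 and 4 peaks and 44 and 37 footprints. Its strongest peak was intronic, chr7:6729441-6729700, at 4.41 and 6.32, above the promoter itself. The first intron is known for repeated sites of the factor YY1, and 12 matches to GCCATNTT were found in the window, all on the minus strand, which is the sense strand of Peg3, and 11 of them with the same 8 letters. Of these, 9 lay in a peak in replicate 1 and 8 in replicate 2, and 6 (66.7%) and 5 (62.5%) of those were under a footprint, while over all peaks 28.9% and 25.9% of YY1 matches were. In all, 4 matches were under a footprint in both libraries. In the 200 bp at the centre of all peaks, 3.72% and 3.79% held this motif. The 2 intronic stretches below hold 3 of these 4 and are shown on the plus strand, where the YY1 motif reads in reverse complement; capitals mark YY1 and TGCCGC matches.
Peg3 intron, strongest site, chr7:6729441-6729700: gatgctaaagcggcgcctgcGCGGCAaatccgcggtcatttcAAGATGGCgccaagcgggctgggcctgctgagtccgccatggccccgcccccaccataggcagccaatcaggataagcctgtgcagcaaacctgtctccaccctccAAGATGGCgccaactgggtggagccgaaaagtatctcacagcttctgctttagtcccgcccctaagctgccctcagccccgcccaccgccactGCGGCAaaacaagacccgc
Peg3 intron, second site, chr7:6728441-6728680: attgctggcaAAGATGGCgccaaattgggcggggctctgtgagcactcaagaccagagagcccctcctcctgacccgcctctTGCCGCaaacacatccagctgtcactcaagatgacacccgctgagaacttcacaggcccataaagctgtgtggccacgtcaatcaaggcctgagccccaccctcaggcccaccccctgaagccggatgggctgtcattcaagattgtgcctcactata
The second site had signals of 3.69 and 4.16. Zim1, the neighbouring zinc-finger gene, had a promoter signal of 3.00 and 3.01. The strongest of the distal peaks in Usp29 introns were chr7:6918361-6918560 at 3.31 and 4.01 and chr7:6937221-6937400 at 2.28 and 2.58, each with a CTCF core under a footprint in both libraries.

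**Figure D3:**
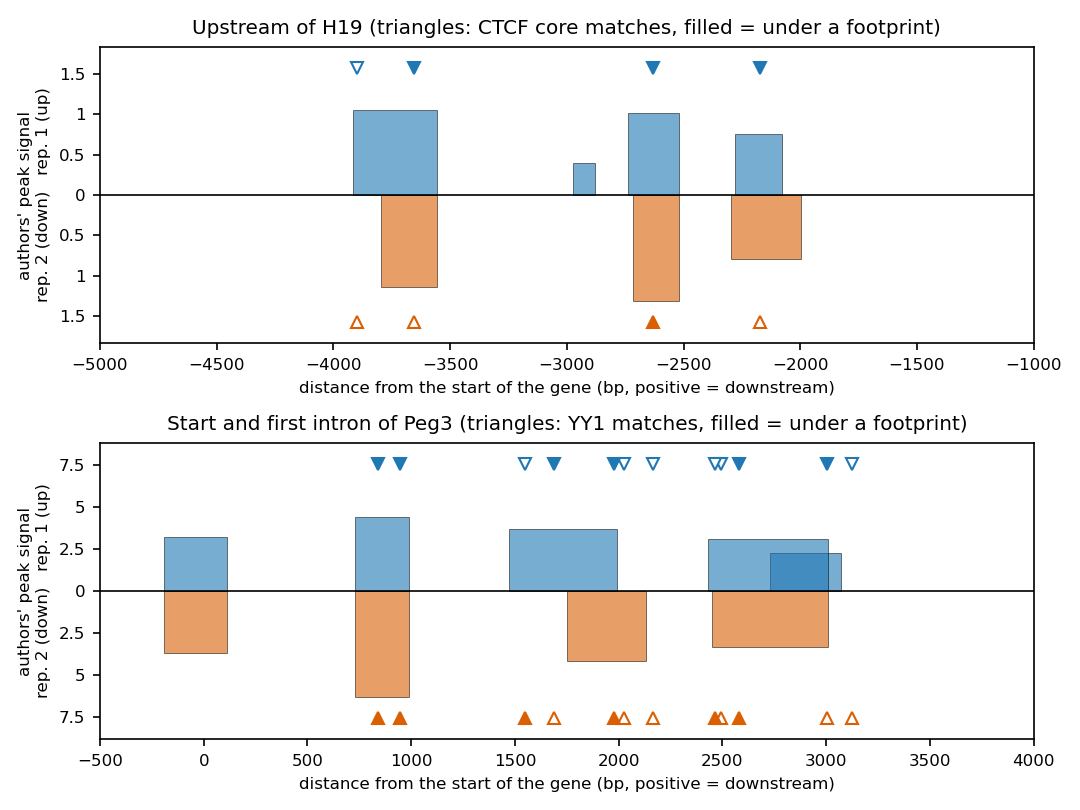
Peaks upstream of H19 (top) and at the start and first intron of Peg3 (bottom) by distance from the gene start (x axis, bp); bar height is the authors' peak signal, upward for replicate 1 and downward for replicate 2, and triangles are CTCF core (top) or YY1 (bottom) matches, filled where a footprint covers at least 0.5 of the match. At H19 the match 2.63 kb upstream is filled in both libraries; at Peg3 the matches 838 and 944 bp into the gene lie in the strongest peak and are filled in both.

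In the Kcnq1ot1 domain, which lies next to Igf2 on chromosome 7, the promoter of the silencing RNA was the most accessible of the 3 members. Kcnq1ot1, a paternally expressed antisense RNA, had 3.78 and 3.71 at chr7:143296481-143296740. The maternally expressed genes it is known to silence were lower, Cdkn1c, a cyclin-dependent kinase inhibitor, at 2.26 and 2.32, and Phlda2, a regulator of placental growth, at 0.547 and 1.04. Upstream of Cdkn1c stood 3 intergenic sites at 3031, 5451 and 9091 bp from its start in replicate 1, with signals of 1.73 and 2.33, 1.98 and 2.67, and 1.83 and 1.94. Each held a CTCF core that a footprint covered whole in both libraries.

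The Snrpn-Ube3a domain, the locus of Prader-Willi and Angelman syndromes in humans, ranged from a strong promoter to an annotated start without a peak. Ube3a was the strongest member promoter in replicate 1 and second to Inpp5f in replicate 2. Beside Ube3a at 7.55 and 8.28 stood Mkrn3, a ring-finger gene, at 1.99 and 2.71, and Snrpn, a splicing factor gene whose start is the imprinting centre, at 1.91 and 1.70. The upstream start of Snrpn, 135 kb away, had only 0.234 and 0.214. Peg12 had 0.807 and 0.880, and Magel2, a cofactor of ubiquitin ligases, had 0.667 and 0.643. Ndn, which encodes the growth suppressor necdin, had no peak within 500 bp of its only annotated start and no listed base there. A peak over its exon, 1722 bp from that start in replicate 1 and 1732 bp in replicate 2, had 1.93 and 2.58. Whether transcription starts at this exonic peak was not tested, so Ndn is closed only at the start that the annotation gives. Mkrn3, Magel2, Peg12 and Snrpn were all below the median of open genes in both libraries. The Snrpn site is shown with its ZFP57 hexamers in capitals.
Snrpn upstream of the start, chr7:60005112-60005240: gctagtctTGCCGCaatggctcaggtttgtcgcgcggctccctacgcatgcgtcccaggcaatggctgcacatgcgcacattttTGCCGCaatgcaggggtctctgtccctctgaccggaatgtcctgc

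In the Dlk1-Meg3 domain on chromosome 12 no promoter of the 5 members had a signal above 1.43. Meg3, a maternally expressed long non-coding RNA, had a promoter signal of 1.43 and 1.31, and a stronger peak at chr12:109542941-109543160 in replicate 1 (2.83 and 2.24) lay 783 bp from the nearest start and so outside the promoter window. The Meg3 start held 1 match to the cyclic AMP response element TGACGTCA, under a footprint in replicate 1 and not in replicate 2. This motif was found at 0.832% and 0.892% of all peak centres, and 78.6% and 70.6% of its matches in all peaks lay under a footprint. Dlk1, a transmembrane ligand of the Notch family that restrains differentiation, had 0.484 in replicate 1 and no peak in replicate 2, where no base near its starts was listed either. Rtl1, a retrotransposon-derived gene, and Rian, a host RNA of small nucleolar RNAs with 19 annotated starts, had no peak and no listed base in either library. Mirg, a microRNA host transcript, was open only near starts 18.1 to 18.2 kb inside the gene. No peak, footprint or listed base was found in the window from 16 to 9 kb upstream of Meg3, where the germline control region of the domain lies. Whether reads could be placed uniquely there was not tested.

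Among the members, 7 pairs of a host gene and an imprinted gene inside or beside it were compared. In 6 of the 7 the host promoter was the more accessible in both libraries. The pairs were set by hand and such pairs elsewhere were not counted, so this count has no background. Outside these pairs, Kcnq1, a neighbour that is not a member, had 0.469 in replicate 1 and no peak in replicate 2. It was thus below its antisense RNA Kcnq1ot1 (3.78 and 3.71). Nespas, also outside them, exceeded every Gnas start, as given below. Each gene is represented by its highest promoter peak, and the inner peaks of Zrsr1, Nnat and Nap1l5 also lie within 500 bp of a lesser start of their host, Commd1, Blcap and Herc3. Copg2, a coat protein gene, had 2.99 and 2.68 times the signal of Mest, and Commd1, a copper metabolism gene, had 2.44 and 2.88 times that of Zrsr1. Igf2r, the receptor that clears IGF2, exceeded the antisense RNA Airn 3.45-fold and 2.36-fold. Trappc9, a vesicle trafficking gene, exceeded Peg13, a non-coding RNA gene in its intron, 1.66-fold and 1.41-fold. Blcap exceeded Nnat, which encodes the membrane protein neuronatin, 1.32-fold and 1.87-fold. Herc3, a ubiquitin ligase gene, exceeded Nap1l5 1.29-fold and 1.35-fold. Herc3 and Nap1l5 were thus the nearest of the 6 pairs in replicate 1 and in replicate 2. H13, a signal peptide peptidase gene, was the exception, at 0.879 and 0.727 of the signal of Mcts2, a retrogene in its intron. In Inpp5f the same order was found within 1 gene, with 6.30 and 8.54 at the main start and 2.48 and 3.20 at the internal start 77.2 kb downstream. Inner genes were nevertheless open in all 7 pairs.

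**Figure D4:**
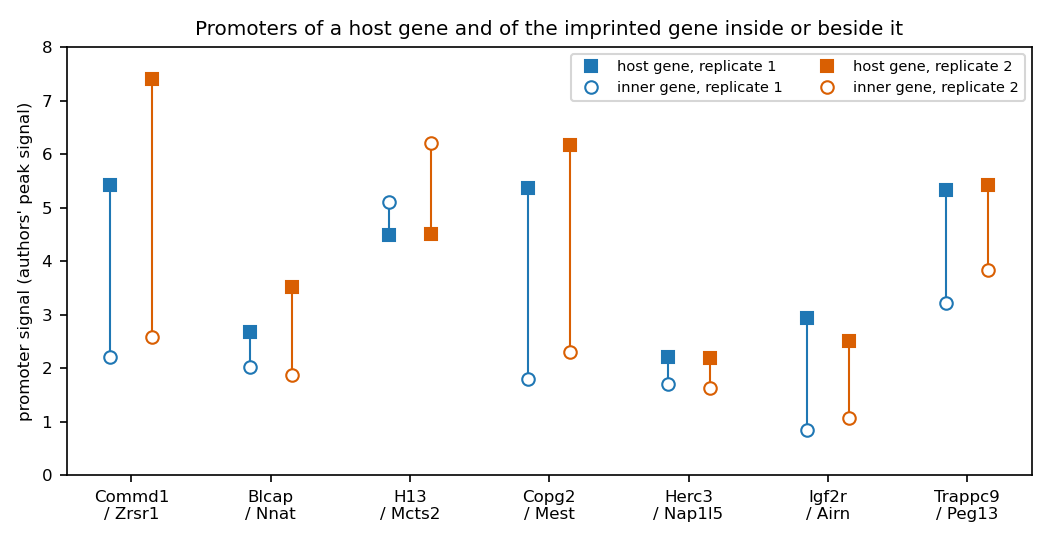
Promoter signal (y axis, the authors' peak signal) of host genes (squares) and of the imprinted gene inside or beside them (open circles) in replicate 1 (blue) and replicate 2 (orange), with a line joining each pair. The square is above the circle in both libraries at 6 pairs, and below it at H13 and Mcts2.

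Several of these inner promoters carried motifs at their starts. The Nnat peak, at 2.03 and 1.87, and the stronger Zrsr1 peak, centred 936 bp after the start of the gene record in replicate 1 at 2.21 and 2.57, each held 2 matches to GCATGCGC, the recognition sequence of the activator NRF1. In each pair the matches overlap on opposite strands and so mark 1 site. All 4 matches lay under footprints in both libraries, where 64.5% and 66.2% of NRF1 matches in all peaks did, and 1.33% and 1.56% of all peak centres held the motif. The Mcts2 peak held 3 ZFP57 hexamers, and the Peg13 start held 2 CTCF cores in peaks, of which 2 in replicate 1 and 1 in replicate 2 were under a footprint. The non-exonic parts of the Nnat and Mcts2 peaks are shown with these motifs in capitals.
Nnat start, chr2:157560008-157560077: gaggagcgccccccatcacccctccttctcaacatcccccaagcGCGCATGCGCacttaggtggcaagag
Mcts2 start, chr2:152686821-152687034: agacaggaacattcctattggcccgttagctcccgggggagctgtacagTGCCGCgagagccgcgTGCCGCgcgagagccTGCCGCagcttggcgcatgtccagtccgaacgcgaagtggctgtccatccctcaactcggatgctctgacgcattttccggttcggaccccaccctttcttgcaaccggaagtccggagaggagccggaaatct

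Alternative starts differed in accessibility within single genes. At Gnas, which encodes the stimulatory G-protein subunit and has several imprinted promoters, the start 45.7 kb from the gene record start had 2.91 and 2.85, the start 43.3 kb in had 1.79 and 2.40, and the last open one, 60.3 kb in, had 1.94 and 1.89. The start at 13.5 kb had 0.813 and 0.823 and the 5-prime-most start 0.896 and 0.812, so the downstream starts were the stronger. The start of the antisense RNA Nespas had 3.64 and 3.17, above every Gnas start. Mest, Plagl1 and Grb10 were closed at their 5-prime-most start and open inside the gene. Mest, a hydrolase-like gene, had 1.79 and 2.30 at starts 14.5 kb in. Plagl1, a zinc-finger regulator of growth genes, had 1.49 and 1.89 at starts 30.2 kb in, and Grb10, a growth factor receptor adaptor, had 1.68 and 2.71 at a start 12.4 kb in. Peg10 and Sgce, a retrotransposon-derived gene and a sarcoglycan gene, had 1.53 and 1.77 at their common peak. Rasgrf1, an exchange factor for Ras, had 1.25 and 1.30, and the window from 35 to 25 kb upstream, where its control region lies, held 1 weak peak (0.474 and 0.665). Slc38a4, an amino acid transporter gene, was closed at all 5 starts, and Impact, a translation regulator, had 1.31 and 1.82 at its first start and up to 2.22 and 3.90 at internal starts.

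Across 21 windows set at known or likely control regions, 18 had a peak in both libraries. Most spanned 1 kb on either side of a start, and those of Plagl1, Grb10 and Inpp5f pooled 10, 8 and 6 such windows. By the narrower 500 bp rule 50.8% of all genes were open in both libraries. Windows of this kind were not counted elsewhere, so the count of 18 has no background and does not set control regions apart. The 3 without were the upstream region of Meg3, the start of Slc38a4 and the 5-prime-most start of Mest. The Mest window did not reach the open starts 14.5 kb into the gene (1.79 and 2.30). Its lack of a peak therefore does not show a closed control region. ZFP57 hexamers were common in these sites. Among the peaks of these windows 16 of 41 (39.0%) in replicate 1 and 19 of 39 (48.7%) in replicate 2 held TGCCGC in the 200 bp at their centre. Over all peaks the shares were 8.53% and 9.13%, over all peaks at annotated starts 15.1% and 15.6%, and over the other start-site peaks of the same regions 26.8% and 22.8%. Under footprints the hexamer was not set apart, with 24.4% and 18.2% of its matches in control-region peaks covered, beside 23.4% and 21.4% over all peaks. These counts take overlapping peaks separately, and neighbouring peaks of 1 control region are not independent.

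Distal sites were peaks whose centre lies over 1000 bp from every annotated start of a coding or long non-coding gene. Starts of other gene types, such as small RNA genes and pseudogenes, were not considered. Distal sites were counted in the gene bodies plus 20 kb on each side, 3680 kb in all. The regions held 259 and 208 peaks, of which 158 and 119 were distal, or 4.29 and 3.23 per 100 kb, against 2.61 and 1.94 over the whole genome. The genome length included assembly gaps and chromosome Y, which lowers the genome density in these female samples. Counted per gene, the median density was 3.77 and 2.35 for members and 2.40 and 2.06 for all genes, a smaller gap in replicate 2. At least 1 distal peak was present at 39 and 36 of 42 members, beside 73.4% and 67.3% of all genes. Of the 20 clusters, 14 and 13 were denser than the genome and 11 in both libraries. The median of all genes, 2.40 and 2.06, was itself near the genome values. The share of all genes above those values was not counted, so this count does not set the clusters apart. Igf2-H19 was the densest in each library, at 13.2 and 9.12 per 100 kb, although Igf2 had no open start, while Peg10-Sgce (1.59 and 0.793) and Grb10 (1.35 and 1.35) were below the genome in both. Rasgrf1 had 13 distal peaks in replicate 1, of which 11 had no counterpart in replicate 2, where it had 4. Igf2r-Airn went the other way, with 8 in replicate 1 and 15 in replicate 2, of which 7 had no counterpart. Of the region peaks, 70.7% and 86.5% overlapped a peak of the other library.

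**Figure D5:**
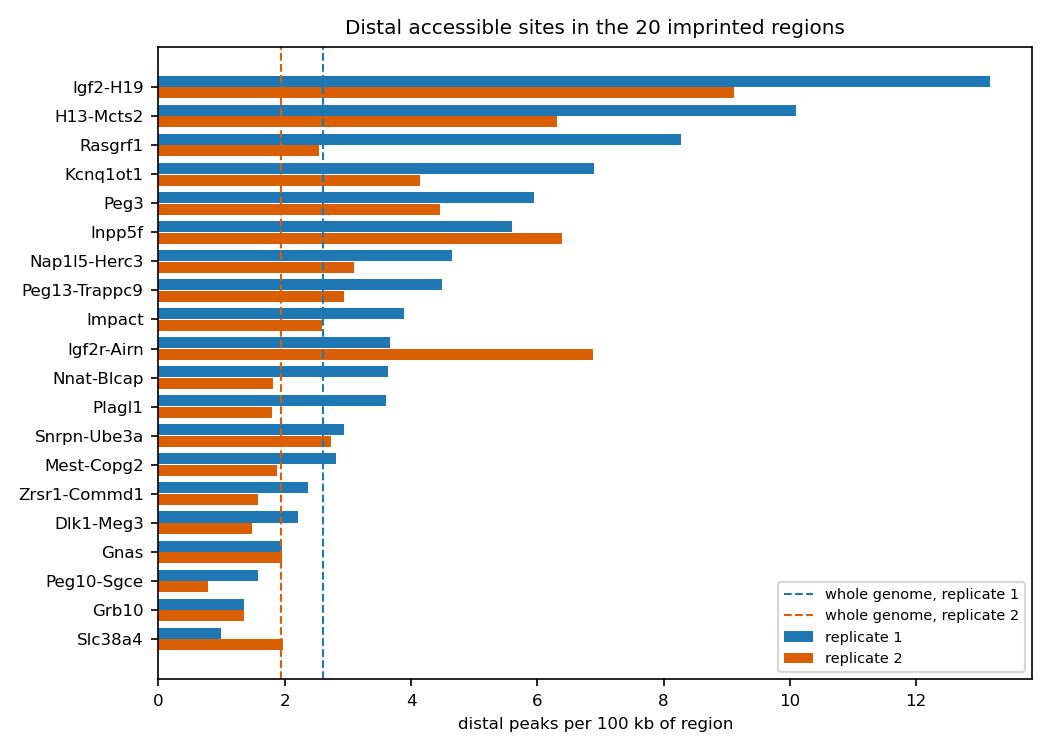
Distal peaks per 100 kb (x axis) in each of the 20 imprinted regions (y axis) in replicate 1 (blue) and replicate 2 (orange), with the density over the whole genome as dashed lines. Igf2-H19 is highest in both libraries, Rasgrf1 is higher in replicate 1 and Igf2r-Airn is higher in replicate 2.

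The strongest distal site lay 6437 bp upstream of Trappc9, at chr15:73067441-73067840 in replicate 1. Its signals of 9.78 and 11.4 exceeded those of every imprinted promoter, and only 20 of 71131 distal peaks in replicate 1 and 29 of 52968 in replicate 2 were stronger. Other strong sites were an intronic site of Peg10, chr6:4749181-4749360, at 4.65 and 5.33, and one in an Inpp5f intron, chr7:128690281-128690480, at 3.86 and 6.44, which lies 1892 bp from the internal start and has a CTCF core covered whole by footprints in both libraries. These are shown on the plus strand, as they are the most accessible sites of the regions away from starts; capitals mark the NRF1 match of the first and the CTCF core of the last.
Trappc9 upstream, central part, chr15:73067491-73067790: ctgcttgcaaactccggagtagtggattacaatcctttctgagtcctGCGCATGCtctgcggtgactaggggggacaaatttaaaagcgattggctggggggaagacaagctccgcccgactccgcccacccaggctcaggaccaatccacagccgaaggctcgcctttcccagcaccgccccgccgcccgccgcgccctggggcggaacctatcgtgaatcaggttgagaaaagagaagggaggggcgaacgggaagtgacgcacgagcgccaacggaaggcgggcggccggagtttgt
Peg10 intron, chr6:4749181-4749360: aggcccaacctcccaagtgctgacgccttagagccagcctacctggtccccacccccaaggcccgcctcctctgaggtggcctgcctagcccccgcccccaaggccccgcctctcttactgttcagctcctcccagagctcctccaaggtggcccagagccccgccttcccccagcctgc
Inpp5f intron, chr7:128690281-128690480: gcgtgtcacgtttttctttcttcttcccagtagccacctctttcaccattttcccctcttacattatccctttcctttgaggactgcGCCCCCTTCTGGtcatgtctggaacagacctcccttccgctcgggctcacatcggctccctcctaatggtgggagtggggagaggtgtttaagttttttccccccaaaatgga

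CTCF cores were found at a share of region peaks near that of all peaks. Among them 38 of 259 (14.7%) and 33 of 208 (15.9%) peak centres held one, beside 12.9% and 14.2% of all peaks. Of the matches within the region peaks 33 of 41 (80.5%) and 23 of 35 (65.7%) lay under a footprint, beside 73.4% and 65.5% over all peaks. Leaving out Impact, 12 distal matches in 8 clusters were under a footprint in both libraries, 9 on the minus strand and 3 on the plus strand. Cover in both libraries and strand were not counted over all distal matches, so these counts have no background. The cores of 3 clusters are printed with 4 bases on each side, on the strand of the motif, in capitals.
Cdkn1c upstream, near, chr7:143464080-143464091, minus strand: tcggCCACCAGGGGGCagca
Cdkn1c upstream, middle, chr7:143466498-143466509, minus strand: ctgaCCACCAGGGGGCagaa
Cdkn1c upstream, far, chr7:143470160-143470171, minus strand: ttggCCAGCAGGCGGCgccc
Usp29 intron, stronger peak, chr7:6918461-6918472, minus strand: gctgCCAGTAGAGGGCaccc
Usp29 intron, weaker peak, chr7:6937316-6937327, minus strand: tcggCCAGCAGGTGGCgcac
Dlk1 upstream, chr12:109437907-109437918, plus strand: cccgCCGGCAGGGGGCgcag
The Dlk1 site lay 14.9 kb upstream, with signals of 1.43 and 1.53, and was stronger than the Dlk1 promoter in replicate 1.

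Replicate agreement was read after centring the log2 ratio of the libraries (replicate 1 over replicate 2) on peaks shared 1 to 1, whose median was -0.25 and SD 0.32 over 61026 peaks. Of the 36 members open in both libraries, 27 lay within 1 SD of 0. The lowest was Mirg at -0.91, followed by Phlda2 at -0.67, the only ones beyond 2 SD, and Impact at -0.56, whose highest peak was not the same in the 2 libraries. The highest were Igf2r at 0.48, Snrpn at 0.42 and Meg3 at 0.38.

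Genes around and behind the members give the setting. The neighbours were chosen by position, whether imprinted themselves or not, so they are no set of non-imprinted genes. Of 50 neighbouring genes of the same domains that are not members, 40 and 36 were open, beside 54.5% and 51.5% of all genes. In both libraries 34 were open, beside 50.8% of all genes. The median signals of the open neighbours were 1.52 and 2.13. So the neighbours, like the members, were open more often than all genes, and their numbers of annotated starts were not matched. The strongest were Xpo1, a nuclear export receptor next to Commd1 (11.4 and 14.6), and Nap1l4, a histone chaperone beside Phlda2 (10.0 and 14.9). Ins2 and Th, between Igf2 and the next domain, were among 8 neighbours with no promoter peak in either library. Of 15 genes that establish or keep imprints, 12 and 13 were open and 12 in both, beside the same shares of all genes. Yy1 (8.16 and 8.79) and Dnmt1 (7.21 and 8.04) were the strongest, Zfp57 had 1.12 and 0.981, and Ctcfl and the oocyte factor gene Dppa3 had no peak in either library.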

How the data were processed

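For the 2 libraries of 1 group the peak lists, the footprints and the per-base cut-rate tables were used, all on mm10. Per the README texts deposited with them, the authors derived each list from the alignments of that library by itself. Not given in the sources used here were aligner, peak caller and versions. The deposited peak signal is a value per peak of unstated scaling, the deposited footprint column read as a p-value is 0.01 in every row, and the deposited cut-rate p-value is a false discovery rate, listed only up to 0.05. Of the 2 peak lists per library the longer was used. The depth per sample is unknown, so no interval could be attached to a signal.

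Gene models came from GENCODE M21 and sequence from GRCm38.p6, read with pysam 0.24.0 (pandas 2.3.3, numpy 2.4.6, matplotlib 3.10.9). Open promoters, distal sites, control-region windows and motif matches on both strands were defined as stated beside each result, with a minimum overlap of 1 bp. A promoter signal is the highest peak near any start, so genes with many starts have more chances to be open. The interval and motif searches were tested on simulated data with known answers. Members, windows and gene lists were chosen with earlier results of these data known. The genes described in full are the highest and lowest of each cluster, the control regions, up to 3 genes at either end of the replicate difference, and the 2 strongest and 2 weakest of the neighbouring and maintenance genes, with further genes named after their values were seen. Zfp264, a pseudogene, was left out of the neighbours. Sequence and positions at Impact, and 1 excitatory neuron marker, are not reported here. Peak lists, peak numbers, windows, flanks, overlap rules, footprint cover and libraries were varied as alternatives.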

Additional observations from a re-analysis of the deposited data

How the results depend on the processing

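The number of imprinted genes open in both libraries ranged from 31 to 37 over the alternatives, beside 36 as reported, and the number of control regions with a peak in both from 17 to 18. With the strongest 50% of the peaks H19, Phlda2, Magel2, Peg12 and Mirg were no longer open in both libraries, at the start of the gene record alone Phlda2, Mirg, Plagl1, Grb10 and Mest were not, and with a window of 2000 bp Ndn was added. For the median promoter signal of members the limit was the SD of the 2 library medians. These medians were not centred, so the limit includes the difference in scale between the libraries. It was passed with the 2000 bp window in replicate 1 (2.68) and with the 100 bp window in replicate 2 (2.30). At the start of the gene record alone it was passed in replicate 2 (2.19). The median stayed below that of all genes under each of these. Distal peak counts followed the lists and the length searched: 81 and 60 with the shorter list, 71 and 48 with the strongest 50%, 105 and 79 without flanks, 307 and 233 with 100 kb flanks, and 97 in replicate 1 with shared peaks only. Density per 100 kb was 4.25 and 3.20 without flanks and 4.14 and 3.14 with 100 kb flanks. It was 2.20 and 1.63 with the shorter list, 1.93 and 1.30 with the strongest 50% and 2.64 and 2.61 with shared peaks only. The genome density was not computed for these lists, so whether the regions stay denser than the genome was not tested. With 50% reciprocal overlap the shared share was 58.3% and 72.1%. Footprinted CTCF cores fell to 16 and 10 without flanks, where fewer bases were searched. Otherwise the cause was not tested. Of 58 alternatives 42 stayed within the limits set and 16 moved. For counts the limit was a fold change. Open promoters and control regions were already near their maximum, so their counts could not pass it by rising. Only a large loss would have counted as moved, so for these counts the tally is no measure of stability. No paired analysis was possible because the design has 1 group. Depth is unknown, so a weak promoter such as that of H19 and a closed one such as that of Dlk1 in replicate 2 may differ by less than the files can resolve.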
